A study of Mus musculus with 3 samples.

Results

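Expression of 10 genes was followed in TEa CD4 T cells, a population with 1 transgenic T cell receptor that recognises an allopeptide of BALB/c origin. The genes were S100a4, S100a6, S100a10, S100a11 and S100a13, the galectins Lgals1 and Lgals3, the annexins Anxa1 and Anxa2, and the actin-capping gene Capg, which are 10 of the 28692 genes in the feature lists. They were taken by name, but the list was chosen with earlier results of these data known, so counts over it are descriptions. Naive wild-type TEa cells had been transferred into C57BL/6 mice that received a BALB/c heart, and were sorted 7 days after transplantation from either the graft or the spleen. Both groups were thus wild-type cells with the same transgenic receptor from recipients of the same kind of graft, and the age and number of animals behind each library were not given in the sources used here. A spleen library of Ldha-/- TEa cells was not analysed here. There was 1 droplet-based 3' library per group, so tissue and library cannot be told apart, no difference has a replicate check, and no test was made.

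S100 proteins are small calcium-binding proteins of the EF-hand type that act as dimers on the cytoskeleton, on enzymes and, once released, on cell-surface receptors. Annexins bind phospholipid membranes in a calcium-dependent way, and S100A10 and S100A11 are the classic partners of annexin A2 and annexin A1. Galectins bind beta-galactoside sugars on glycoproteins and can cross-link T cell surface receptors, and CapG caps the barbed ends of actin filaments. In T cells several of these genes are known to be low in naive cells and higher after activation and in memory cells.

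Barcodes were kept as cells with at least 1000 unique molecular identifiers (UMIs, which count captured transcripts), at least 500 genes, at most 10% mitochondrial UMIs and at most 1 UMI of the macrophage gene Lyz2. This left 3997 heart cells with 42401177 UMIs and 6578 spleen cells with 56328025 UMIs, with medians of 8237 and 7989 UMIs per cell. At least 1 UMI of a CD3 or T cell receptor gene was present in 99.9% of heart cells and 99.8% of spleen cells. The libraries shared 6 cell barcodes. Cycling cells made up 13.5% of heart cells and 2.86% of spleen cells. The level of a gene is its CPM, its counts divided by all UMIs of the library and scaled to 1000000, with exact 95% Poisson intervals that, like all intervals here, cover counting error only. Each ratio sets heart over spleen on the log2(CPM + 1) scale, where the difference of a low gene is understated. A higher summed level can come from more cells with the transcript or from more transcripts per cell, so shares of cells are given beside it, after each cell was thinned to 1000 UMIs.

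All 10 genes were higher in the heart library than in the spleen library. Together they took 0.911% of heart UMIs and 0.379% of spleen UMIs. Of the 9 genes that reached 50 CPM in at least 1 library (Anxa1 did not), 7 were at least 2-fold higher in heart, against 11.8% of the 2705 genes at that level. None of the 9 was 2-fold lower, against 4.88% of those genes. The median log2 ratio of the 10 genes was 1.40, beside 0.05 over all genes with at least 50 CPM. The members ranged from 0.51 for S100a13 to 2.81 for Capg.

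**Figure D1:**
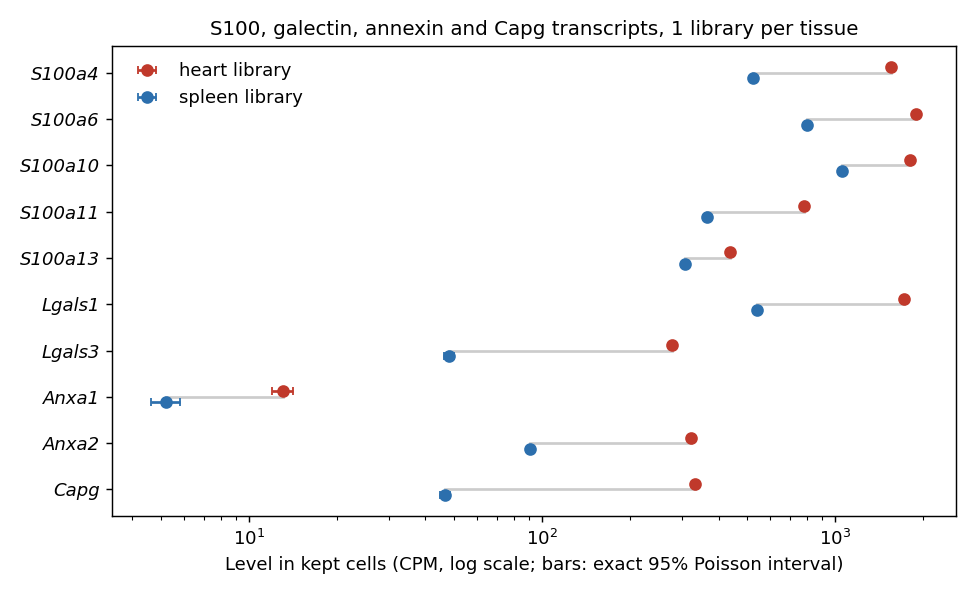
Level of each gene in the heart and spleen libraries (CPM, log axis; bars are exact 95% Poisson intervals, which for most genes are smaller than the points). Each heart value lies above the spleen value of the same gene, from 437 against 307 CPM for S100a13 to 333 against 46.6 CPM for Capg.

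Among the S100 genes, S100a4 showed the widest gap. S100a4, which binds non-muscle myosin and is a common marker of memory T cells, stood at 1548 CPM among heart cells (1536 to 1560) and 524 CPM among spleen cells (518 to 530). This was a log2 ratio of 1.56, or 2.96-fold (2.92 to 3.00). S100a6, or calcyclin, stood at 1891 CPM among heart and 801 CPM among spleen cells, a log2 ratio of 1.24. S100a11, the partner of annexin A1, stood at 781 CPM and 366 CPM, a log2 ratio of 1.09. These 3 genes were therefore past 2-fold, whereas the other two were not. With mitochondrial, ribosomal protein and Malat1 counts left out of the totals, S100a11 had a log2 ratio of 0.92 and was no longer past 2-fold. S100a10, the light chain of the annexin A2 tetramer, stood at 1796 CPM among heart and 1053 CPM among spleen cells, 1.71-fold (1.69 to 1.72). S100a13, which takes part in the release of proteins that lack a signal peptide, stood at 437 CPM and 307 CPM, 1.42-fold (1.39 to 1.45).

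Both galectins were past 2-fold. Lgals1, which encodes galectin-1, stood at 1715 CPM among heart cells and 542 CPM among spleen cells, a log2 ratio of 1.66. Lgals3, which encodes the chimera-type galectin-3, stood at 278 CPM among heart cells (273 to 283) and 48.2 CPM among spleen cells (46.4 to 50.03), a log2 ratio of 2.50 or 5.76-fold (5.53 to 6.01). Among the annexins, Anxa2 stood at 322 CPM and 91.3 CPM, a log2 ratio of 1.81. Anxa1, whose protein is an anti-inflammatory ligand of formyl peptide receptors, was the lowest of the 10 at 13.04 CPM among heart cells (11.98 to 14.2) and 5.20 CPM among spleen cells (4.62 to 5.83). Its values rest on 553 and 293 UMIs, 2.51-fold (2.17 to 2.90). Capg had the highest ratio of the 10, with 333 CPM among heart cells (328 to 339) and 46.6 CPM among spleen cells (44.8 to 48.4), 7.15-fold (6.86 to 7.46).

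The S100 genes lie in a cluster on chromosome 3, and their levels differed between close neighbours. In mm10, S100a4 (chr3:90603771-90606045, plus strand) and S100a6 (chr3:90612882-90624181, plus strand) flank S100a5, which stood at 0.047 CPM among heart and 0.071 CPM among spleen cells. S100a3, just upstream of S100a4, stood at 1.44 and 0.99 CPM. S100a13 (chr3:90514435-90524581) is the first of the 5 along the chromosome. S100a11 (chr3:93520488-93526287) and S100a10 (chr3:93555080-93564643) lie together, but 2825 kb beyond S100a9, the nearest listed S100 gene before them. The other genes are scattered: Capg on chromosome 6 (chr6:72544391-72562983), Anxa2 on chromosome 9 (chr9:69453620-69491795), Lgals3 on chromosome 14 (chr14:47367751-47386160), Lgals1 on chromosome 15 (chr15:78926725-78930465) and Anxa1 on the minus strand of chromosome 19 (chr19:20373428-20390944). Anxa1, Anxa2 and S100a4 overlap other annotated genes, and S100a11 and Lgals1 have named pseudogenes, so a part of their reads may have been assigned otherwise.

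Promoter windows from RefSeq were available for 8 of the 10 genes, and 4 are shown because they are the neighbours S100a4 and S100a6 and the only windows of the 8 with the AP-1 core TGANTCA, S100a11 and Anxa2. Each is the 250 bases before the RefSeq start on build GRCm38.p6, all on the plus strand. The windows lie at chr3:90603520-90603769 for S100a4, chr3:90612644-90612893 for S100a6, chr3:93520246-93520495 for S100a11 and chr9:69453433-69453682 for Anxa2. The RefSeq start can differ from the gene start given above, and the windows of S100a6, S100a11 and Anxa2 run past the latter. Capitals mark TGANTCA, which is its own reverse complement, and CCACCC, the box bound by Kruppel-like factors, searched on both strands (GGGTGG where it lies on the other strand).
S100a4: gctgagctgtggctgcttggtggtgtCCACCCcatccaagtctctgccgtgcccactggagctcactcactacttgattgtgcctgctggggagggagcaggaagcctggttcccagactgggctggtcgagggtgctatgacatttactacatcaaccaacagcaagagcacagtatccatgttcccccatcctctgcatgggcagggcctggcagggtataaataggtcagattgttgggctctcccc
S100a6: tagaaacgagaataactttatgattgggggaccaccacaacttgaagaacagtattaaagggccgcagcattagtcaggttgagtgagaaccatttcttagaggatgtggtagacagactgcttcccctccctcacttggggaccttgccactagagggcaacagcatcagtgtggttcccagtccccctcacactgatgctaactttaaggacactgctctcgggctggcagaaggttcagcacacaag
S100a11: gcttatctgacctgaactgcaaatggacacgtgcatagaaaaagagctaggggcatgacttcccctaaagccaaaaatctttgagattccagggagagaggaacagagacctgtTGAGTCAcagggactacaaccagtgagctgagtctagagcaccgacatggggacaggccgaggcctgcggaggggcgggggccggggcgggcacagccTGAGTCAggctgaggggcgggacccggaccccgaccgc
Anxa2: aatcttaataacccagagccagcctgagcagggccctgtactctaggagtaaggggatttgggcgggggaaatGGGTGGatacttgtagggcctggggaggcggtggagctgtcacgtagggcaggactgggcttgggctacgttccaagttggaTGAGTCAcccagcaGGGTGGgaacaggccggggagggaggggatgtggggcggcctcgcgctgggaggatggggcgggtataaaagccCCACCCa
S100a11 held TGAGTCA 136 and 38 bases before its start, and Anxa2 held it 95 bases before. This core was in 6.75% of 32851 windows of the same length. CCACCC was in 4 of the 8 windows (S100a4, S100a13, Capg and Anxa2), against 28.1% of all windows. GGGCGG, the GC box, was in 3 of the 8 (S100a11, Anxa2 and Lgals3), against 32.7%. The S100a6 window held none of the 3 motifs. A match is a string of letters and no evidence of binding.

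Relatives of the 10 genes were read in the same way. None of the 11 other S100 genes on the list reached 10 CPM, and they summed to 7.45 CPM in heart and 2.81 CPM in spleen. S100a2, which the list lacked, had 5 UMIs in heart and 18 in spleen. S100a8 and S100a9, the subunits of neutrophil calprotectin, had 51 and 45 UMIs in the heart library, each from 3 cells, and 0 in the spleen library. Among other galectins, Lgals9, the ligand of Tim-3, stood at 61.2 CPM among heart and 60.4 CPM among spleen cells, and Lgals8 at 20.3 and 25.4 CPM. Lgals7 stood at 46.2 and 2.29 CPM, a log2 ratio of 3.84, although it overlaps an antisense gene. Among other annexins, Anxa5, the phosphatidylserine binder used to stain dying cells, stood at 115 and 83.3 CPM, Anxa6 at 170 and 166 CPM, and Anxa11 at 76.9 and 44.6 CPM. Anxa4 stood at 10.4 and 2.65 CPM. Of the gelsolin family, to which Capg belongs, Gsn stood at 17.4 and 15.0 CPM, Flii at 37.4 and 41.1 CPM and Svil at 27.9 and 38.5 CPM. Of the 11 relatives in these families with at least 10 CPM, only Lgals7 and Anxa4 were 2-fold higher in heart and none was 2-fold lower, against 9.16% and 8.5% of the 6963 genes at that level.

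**Figure D2:**
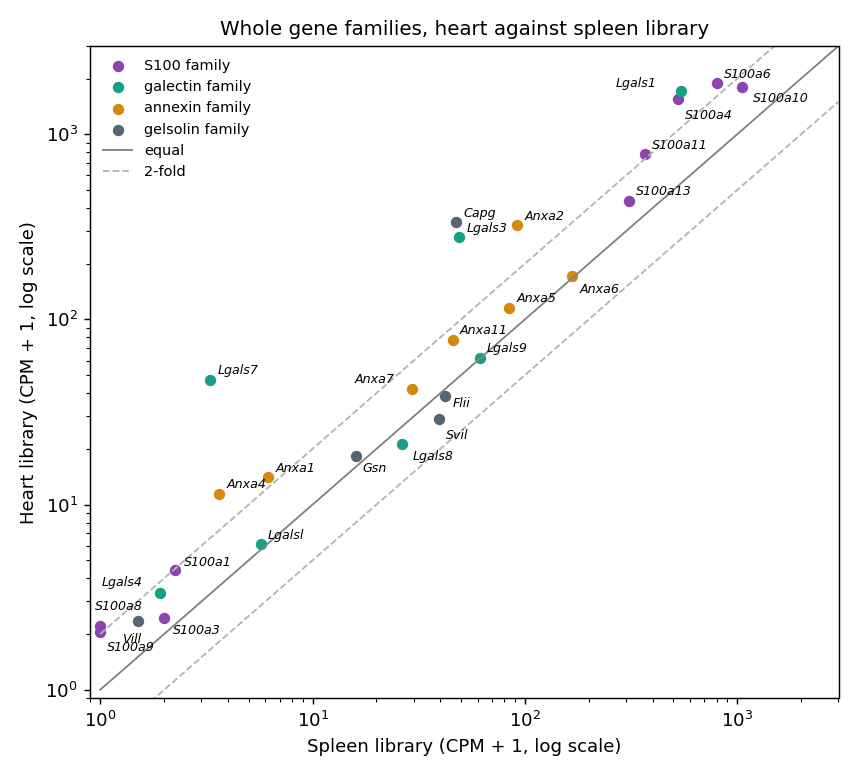
Heart against spleen level of the S100, galectin, annexin and gelsolin family genes (CPM + 1, log axes; the diagonal marks equal levels). The 10 genes described here lie above the diagonal, while Lgals9 and Anxa6 lie on it and Svil and Lgals8 below it.

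Genes whose products work with these proteins were read from lists. Of 23 actin and membrane cytoskeleton genes, 22 had at least 10 CPM, and 8 of them were 2-fold higher in heart and 0 were 2-fold lower, with a median log2 ratio of 0.25. Over all genes with at least 10 CPM, 9.16% were higher and 8.5% lower. The 4 with the largest ratios were Lmna, which encodes the nuclear lamins A and C (30.2 against 4.58 CPM), Plp2 (89.3 against 17.0 CPM), the intermediate filament gene Vim (2049 against 483 CPM) and the tropomyosin gene Tpm4 (298 against 92.9 CPM). Of 16 galectin counter-receptors and glycan enzymes, 15 had at least 10 CPM, 2 were 2-fold higher and 1 was lower, counts near those shares. Those higher were Havcr2, which encodes Tim-3 (10.9 against 0.46 CPM), and Lag3 (75.5 against 35.4 CPM). The lower one was St6gal1, whose enzyme caps N-glycans with sialic acid (12.8 against 50.2 CPM). Ptprc, which encodes the galectin-1 ligand CD45, stood at 500 CPM among heart and 997 CPM among spleen cells, just short of 2-fold lower. Of 10 receptor and release genes only Sytl2 had 10 CPM (40.9 against 18.1 CPM).

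The share of cells with a thinned UMI was higher in heart for all 10 genes, but such a share also rises with the level itself. S100a4 had a thinned UMI in 56.2% of heart cells (54.7 to 57.8%, exact binomial) and 12.6% of spleen cells (11.8 to 13.4%), or in 82.0% and 20.2% before thinning. Spread evenly over cells, the level of S100a4 would have given a thinned UMI in 78.5% of heart cells and 36.1% of spleen cells. S100a6 had a thinned UMI in 64.8% and 25.2% of cells, Lgals1 in 63.9% and 23.5%, and Lgals3 in 17.4% and 2.52%. Capg did in 25.3% and 3.98% of cells, Anxa2 in 20.2% and 6.32%, and Anxa1 in 1.20% and 0.47%. Spread evenly, the levels would have given 27.7% and 4.28% for Capg, 21.8% and 7.19% for Anxa2, and 1.22% and 0.50% for Anxa1. For Capg, Anxa2 and Anxa1 the share of cells thus mostly restates the level. S100a10 was the most widespread, with a thinned UMI in 77.1% of heart cells and 55.7% of spleen cells, and in 99.1% and 96.8% before thinning. For 8 of the 10 genes the variance-to-mean ratio of thinned counts was higher in spleen. This ratio is 1 for random sampling from equal cells. It was 2.61 in heart and 5.38 in spleen for S100a4, 2.57 and 4.57 for S100a6, and 1.73 and 2.87 for Lgals1. It was 1.04 and 1.16 for S100a13. The ratio was lower in spleen for Lgals3 (2.23 and 2.05) and Capg (1.23 and 1.15). However, the ratio also falls toward 1 as the mean falls. The thinned mean was 0.283 in heart and 0.037 in spleen for Lgals3, and 0.324 and 0.044 for Capg. Their lower ratios therefore do not show a more even spread in spleen. The 10% of spleen cells with most S100a4 held 94.3% of its thinned UMIs, against 39.9% in heart.

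Summed over the 10 genes, heart cells had a median of 8 thinned UMIs and spleen cells a median of 2. The sum weighs the abundant genes most. Before thinning, the top 3 genes of each library held 59.3% of the UMIs of the 10 in heart and 63.3% in spleen. The central 80% of heart cells lay between 2 and 16 and that of spleen cells between 0 and 9, while the highest cell was in the spleen library, with 52 against 37. At or above the heart median lay 11.8% of spleen cells. None of the 10 genes had a thinned UMI in 2.18% of heart cells and 21.3% of spleen cells, and at least 5 of them did in 43.1% and 9.06%.

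**Figure D3:**
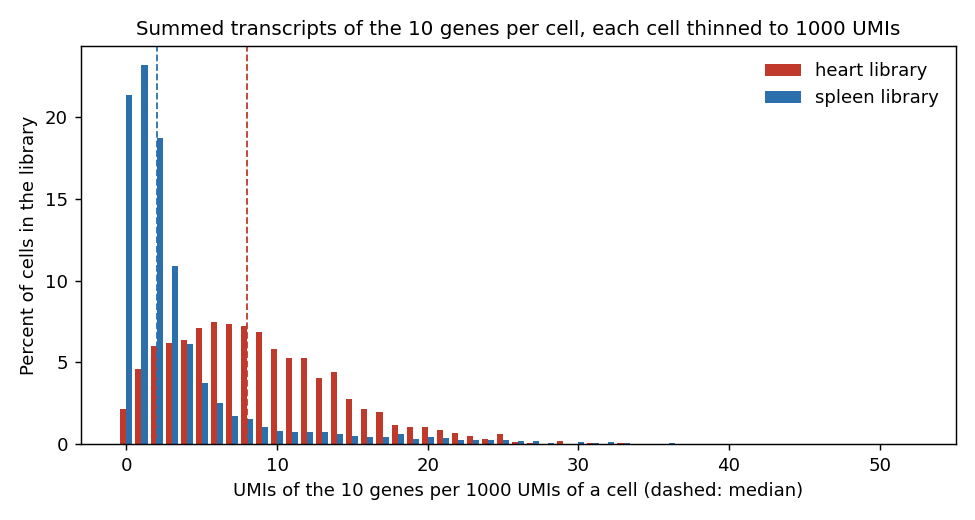
Share of cells of each library (percent) by the summed thinned UMIs of the 10 genes per cell (each cell thinned to 1000 UMIs). Spleen cells pile up at 0 to 4 with a long tail to 52, and heart cells spread around a median of 8.

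Spleen cells with effector transcripts had high levels of the 10 genes. Cells were chosen by a thinned UMI of 1 or more genes outside the 10, and each gene was compared between cells with and without it in the same library. In spleen, 153 cells had Gzmb, which encodes the cytotoxic protease granzyme B. In these cells S100a4 stood at 3652 CPM against 432 CPM in other spleen cells, S100a6 at 4530 against 692 CPM, Lgals1 at 3286 against 462 CPM, and Lgals3 at 511 against 34.6 CPM. All 10 genes were at least 2-fold higher in these cells, among them 9 of the 9 with at least 50 CPM, against 7.88% of all genes at that level. In the 131 spleen cells with Cxcr6, a receptor of tissue-homing T cells, the count was also 9 of 9, against 5.24%. It was 8 of 9 in spleen cells with the cytotoxic granule gene Nkg7, against 3.46%, and 8 of 9 in cycling spleen cells, against 13.4%. The median log2 difference of the 10 genes between cells with and without Gzmb was 2.54 in spleen and 0.41 in heart, and this gap was not tested. The 568 heart cells with Gzmb had S100a4 at 1760 against 1506 CPM, Lgals1 at 2432 against 1570 CPM and Lgals3 at 514 against 230 CPM, and Lgals3 was the 1 of 9 past 2-fold, against 0.484% of all genes.

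Cells with Tcf7, Id3 or Cxcr5 had low levels, whereas spleen cells with Klf2 did not. Tcf7 encodes TCF-1, a transcription factor of naive and stem-like T cells. All 10 genes were lower in cells with Tcf7 than in the other cells of the same library, with a median log2 difference of -0.68 in heart and -0.96 in spleen. Of the 9 genes with at least 50 CPM, 1 was at least 2-fold lower in these heart cells and 4 were in these spleen cells, against 0.611% and 0.919% of all genes at that level. In heart, S100a4 stood at 1034 CPM in these cells against 1587 CPM, Lgals1 at 933 against 1774 CPM, and Capg at 166 against 346 CPM. In spleen, S100a4 stood at 224 against 673 CPM and Lgals3 at 14.7 against 64.8 CPM. S100a4 stood at 146 CPM in the 1796 spleen cells with the transcription factor gene Id3, against 663 CPM in other spleen cells. Among the spleen sets shown, Lgals3 was lowest in the 250 spleen cells with the follicular homing receptor gene Cxcr5, at 5.75 CPM, and stood at 5.79 CPM in the Id3 cells. Anxa1 had 0 UMIs in the Cxcr5 cells, where 3 counts would be 1.44 CPM. S100a11 was the exception in the Cxcr5 cells, at 409 against 364 CPM. Klf2 encodes a transcription factor of quiescent and recirculating T cells. In the 3484 spleen cells with Klf2, all 10 genes were slightly higher than in other spleen cells. The median log2 difference was 0.23, beside -0.008 over all genes with at least 50 CPM on either side. Of the 8 genes at that level, 0 were 2-fold higher, against 0.0416% of all genes. S100a4 stood at 585 against 457 CPM in the Klf2 cells.

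When heart and spleen were compared within cells chosen by the same effector gene, the heart excess of most of the 10 genes was small or turned round. Among cells with Gzmb the median log2 ratio of heart over spleen was -0.43, among cells with Cxcr6 -0.47 and among cycling cells -0.20. In Cxcr6 cells, S100a4 stood at 1971 CPM among heart and 3661 CPM among spleen cells, and S100a6 at 2161 and 3790 CPM. In Gzmb cells, Lgals3 stood at 514 and 511 CPM. Cells with Nkg7, with the chemokine gene Ccl5 or with Ifng, which encodes interferon gamma, gave medians of 0.07, 0.05 and 0.18. Capg was the only one of the 10 at least 2-fold higher in heart in each of these 6 sets, with 423 against 183 CPM in Gzmb cells, 421 against 197 CPM in Cxcr6 cells, 321 against 148 CPM in cycling cells and 317 against 67.2 CPM in Ccl5 cells. That count of 1 of 9 stands beside 6.15% of all genes with at least 50 CPM in cycling cells, 7.49% in Gzmb cells, 8.72% in Cxcr6 cells, 8.91% in Nkg7 cells, 9.7% in Ifng cells and 10.2% in Ccl5 cells, so the share is near the background. Among cells with Tcf7 the heart library was higher for all 10 genes, with a median of 1.59, and 7 of 9 were past 2-fold, against 10.7% of all genes. The median was 1.07 among cells with Klf2 and 1.15 among cells with the interferon-induced genes Ifit1 or Ifit3. Depth differed between these sets, since cycling cells had medians of 19013 UMIs in heart and 14316 in spleen, whereas Gzmb cells had 9150 and 8847. The part of depth in these values was not tested.

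**Figure D4:**
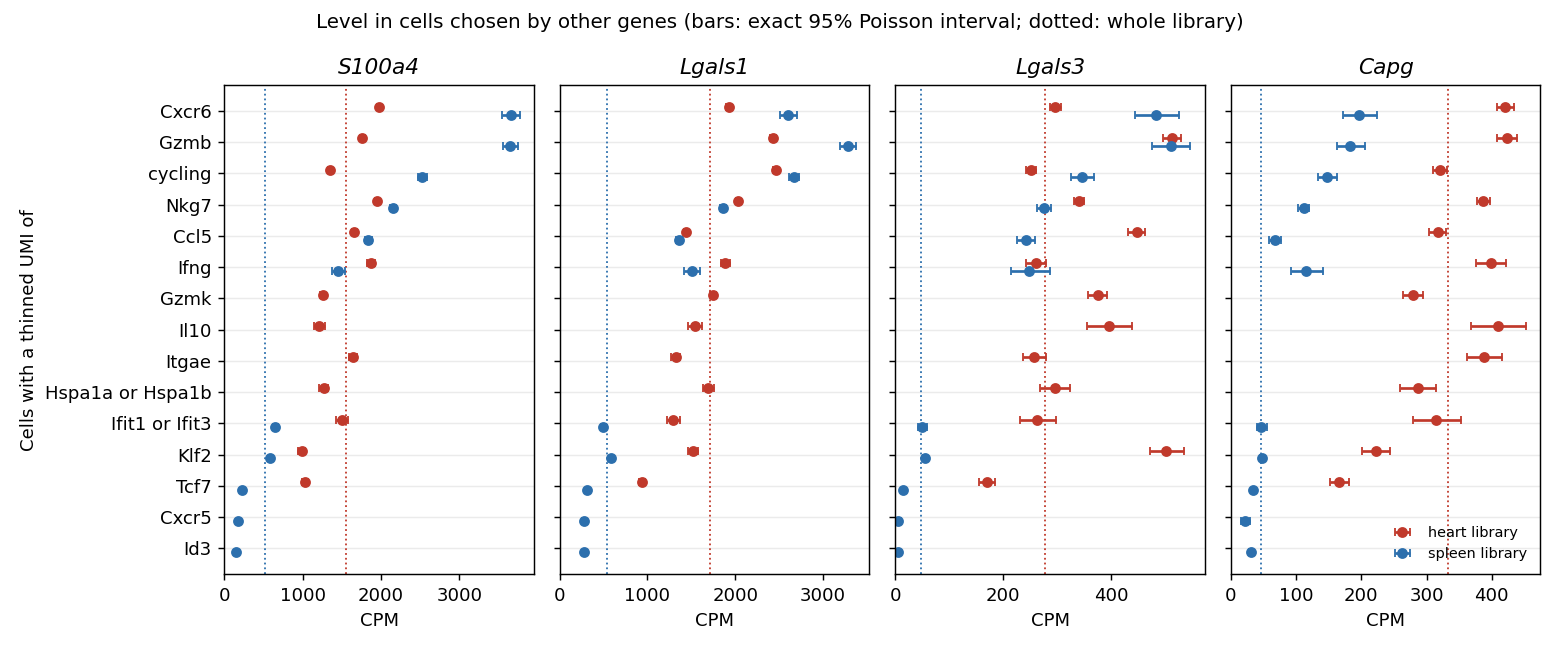
Level (CPM) of S100a4, Lgals1, Lgals3 and Capg in cells of each library chosen by a thinned UMI of the genes on the vertical axis (cycling: at least 2 thinned UMIs of 10 cycling genes; bars are exact 95% Poisson intervals; dotted lines mark whole libraries; sets under 50 cells are not drawn). For S100a4 the spleen points run from 146 CPM in Id3 cells to 3661 CPM in Cxcr6 cells, past every heart point, while every Capg point of the spleen lies below the heart point of the same set.

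Joined into 1 set, cells that were cycling or had a thinned UMI of Gzmb, Nkg7, Ccl5, Cxcr6 or Ifng made up 68.3% of heart cells and 16.4% of spleen cells. This set was defined after the values above were seen. In spleen these 1082 cells carried 18.8% of all UMIs, but 88.0% of Lgals3 UMIs, 69.1% of S100a4 UMIs, 58.0% of Lgals1 UMIs and 41.3% of Capg UMIs. S100a4 stood at 1708 CPM in such heart cells and 1920 CPM in such spleen cells. In the remaining cells it stood at 1105 and 199 CPM. Lgals3 stood at 319 and 225 CPM inside the set, and at 162 and 7.15 CPM outside it. Capg stood at 359 and 102 CPM inside and 261 and 33.7 CPM outside. The median log2 ratio of the 10 genes was 0.11 inside the set, with Capg the 1 of 9 past 2-fold, against 8.64% of all genes. It was 1.76 outside the set, with 7 of 9 past 2-fold, against 11.2%. The remaining cells are a mixture whose makeup differs between the libraries, and Tcf7 had a thinned UMI in 7.36% of heart cells and 33.9% of spleen cells.

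Some cell sets split the 10 genes. In heart, the 206 cells with Klf2 had less S100a4 (991 against 1575 CPM), Capg (222 against 338 CPM) and Anxa1 (4.57 against 13.5 CPM) than other heart cells, yet more Lgals3 (503 against 267 CPM) and S100a10 (2079 against 1783 CPM). Heart cells with Ccl5 had more Lgals3 (448 against 242 CPM) and less Lgals1 (1439 against 1772 CPM). Cycling heart cells had more Lgals1 (2460 against 1450 CPM) and Anxa2 (457 against 275 CPM) and less S100a4 (1347 against 1620 CPM). The 109 heart cells with Il10, which encodes an inhibitory cytokine, had Capg at 409 against 331 CPM and Lgals3 at 396 against 275 CPM. Anxa1 in those cells rests on 2 UMIs, 2.20 CPM (0.27 to 7.94). Heart cells with the heat-shock genes Hspa1a or Hspa1b had the lowest S100a11 of any heart set, at 596 against 788 CPM.

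The heart excess of S100a4 and Lgals3 was smaller in cells with more UMIs. In cells with 1000 to 5000 UMIs the log2 ratio of S100a4 was 2.39, in cells with 5000 to 10000 it was 2.04, and in cells with at least 10000 it was 0.68. For Lgals3 it was 4.24, 3.17 and 1.40, and for Capg 2.87, 2.98 and 2.36. In the deepest range S100a6 was at 0.47 and S100a11 at 0.76, so that these were under 2-fold, as S100a4 was. Lgals1 (1.07) and Anxa2 (1.25) stayed past 2-fold there, as Lgals3 and Capg did. Anxa2 did not follow the order, with 0.87 and 1.64 in the lower ranges. The deepest range held 1360 heart cells and 1006 spleen cells. Cycling cells, which are deeper, were 13.5% of the heart library and 2.86% of the spleen library, and their part in this order was not tested.

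Across cells of 1 library the 10 genes varied together. All 45 pairs had a Pearson correlation above 0 in both libraries, on log counts scaled to 10000 per cell. The median was 0.27 over 3997 heart cells and 0.40 over 6578 spleen cells. Pairs of other genes were not computed, so this count has no background share beside it. The median correlation of other genes with the summed level of the 10 was itself above 0, at 0.06 in heart and 0.05 in spleen. The cells of a library share its depth range and its mixture of states, and the correlation of the summed level of the 10 genes with log total UMIs was 0.23 in heart and 0.18 in spleen. In spleen the chromosome 3 neighbours S100a4 and S100a6 were the closest pair (0.68), followed by S100a4 and Lgals1 (0.64). In heart the closest were Lgals1 and Anxa2 (0.55) and S100a10 and Lgals1 (0.51). Of the protein partners, S100a10 and Anxa2 had 0.39 in heart and 0.45 in spleen. S100a11 and Anxa1, at the low level of Anxa1, had 0.09 and 0.15. Lgals3 and Capg, the genes with the highest ratios between libraries, had 0.12 in heart and 0.31 in spleen.

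**Figure D5:**
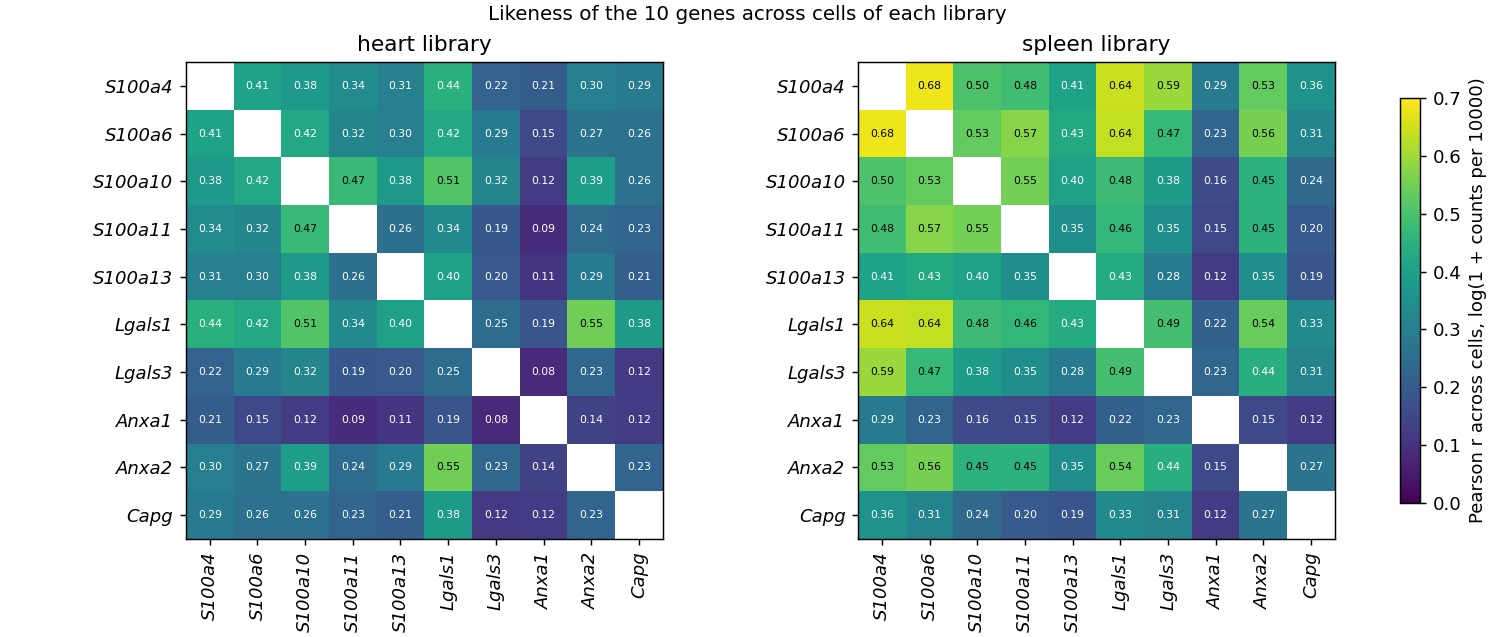
Pearson correlation of each pair of the 10 genes across the cells of the heart library (left) and the spleen library (right), on log counts per 10000. All pairs are above 0, with the highest value 0.55 in heart (Lgals1 and Anxa2) and 0.68 in spleen (S100a4 and S100a6).

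The genes most like the summed level of the 10 were ranked in each library, among genes with at least 50 CPM there. The ranking left out the 10 genes themselves and receptor and immunoglobulin segments. Mitochondrial, sex-linked and unnamed genes were also left out. So were ribosomal protein genes as far as their symbols begin with Rps or Rpl, which that of Fau does not. Among 2192 heart genes the highest correlations were those of Vim (0.65), Sh3bgrl3 (0.62), the actin-sequestering gene Tmsb4x (0.60), the actin gene Actg1 (0.59) and the LIM protein gene Crip1 (0.54). The lowest were those of Ccr7, the receptor for homing to T cell zones (-0.43), Tcf7 (-0.42), Tpt1 (-0.35), Fau (-0.33) and Satb1 (-0.30). Among 2159 spleen genes the highest were Crip1 (0.71), Tmsb4x (0.60), Vim (0.59), the giant scaffold gene Ahnak (0.58) and Nkg7 (0.55). The lowest were Eef1b2 (-0.40), Izumo1r, the folate receptor 4 gene (-0.38), Rgs10 (-0.38), Btg1 (-0.37) and Malat1 (-0.34). The central 90% of genes lay between -0.09 and 0.25 in heart and between -0.08 and 0.23 in spleen.

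Several of the 10 genes are also strong in macrophages and neutrophils, so the markers of other cells were read beside them. In the 77 heart barcodes with 2 or more Lyz2 UMIs, which were left out, Lgals3 stood at 2214 CPM, S100a6 at 2381 CPM, Anxa2 at 617 CPM and Capg at 659 CPM. In kept cells, 14 myeloid markers summed to 354 CPM in heart and 207 CPM in spleen, mainly from Ctss (209 and 130 CPM) and Cst3 (135 and 73.1 CPM), and Lyz2 itself stood at 1.04 and 0.16 CPM. Neutrophil markers summed to 2.52 and 0.02 CPM and cardiomyocyte markers to 0 and 0.02 CPM. Of the CD8 T cell markers, which were also higher in heart, Cd8a stood at 4.39 and 0.02 CPM (186 UMIs and 1 UMI) and Cd8b1 at 12.7 and 5.33 CPM, and their part in the values was not tested. Barcodes with 10 to 100 UMIs, which hold free RNA as well as debris, had the 10 genes at 0.54 to 1.34 times the level of kept cells. Lgals3 stood at 371 CPM there in heart. Lyz2 stood at 232 CPM in the low-UMI barcodes of the heart library, so its level in kept cells was 0.448% of that. At the same share Lgals3 would receive 1.66 of its 278 CPM from that source in heart, and Capg 0.56 of its 46.6 CPM in spleen, where the Lyz2 share was 0.899%. A Lyz2 UMI was present in 1.10% of kept heart cells and 0.14% of kept spleen cells. Cells were kept only with at most 1 Lyz2 UMI, which holds down these shares and the estimates made from them, so they are no upper limit. The share depends on the gene used. The erythroid gene Hbb-bs stood at 175 CPM in kept spleen cells and 238 CPM in spleen low-UMI barcodes, where Capg stood at 62.5 CPM. In heart Hbb-bs stood at 0 and 101 CPM. The part of free RNA in the low spleen level of Capg was not tested. Erythroid markers summed to 0.07 CPM in heart and 295 CPM in spleen, and B cell markers to 45.7 and 186 CPM, and the part of these cells in the spleen values was not tested. Natural killer cell markers summed to 3.68 CPM in heart and 10.4 CPM in spleen. Klrb1c stood at 0.02 and 3.99 CPM (1 UMI and 225 UMIs), Eomes at 0.31 and 2.47 CPM, Ncr1 at 0.05 and 0.92 CPM, and Tyrobp at 3.30 and 3.00 CPM. The part of natural killer cells in the spleen sets chosen by effector genes was not tested.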

How the data were processed

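The heart and spleen libraries of wild-type TEa cells were analysed. The deposited files hold raw UMI counts over all 6794880 possible barcodes, written by Cell Ranger 3.0.2 per the file headers. Per the submitters' processing notes, the build was mm10 and the tools were Seurat 4.0.0 and Cell Ranger 7.0.0. Whether intronic reads were counted is not given in the sources used here. In the labels, the protocol describes sorted cells but also a nuclei suspension.

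Counts of kept cells were summed and scaled to CPM with numpy 2.4.6, scipy 1.17.1 and pandas 2.3.3. Genes count as higher or lower at 2-fold with at least 50 CPM (members) or 10 CPM (lists) in either library. Intervals are exact Poisson for CPM and Clopper-Pearson binomial for shares and ratios, at 95%. A count of 0 allows 3 counts, or 0.0708 CPM in heart and 0.0533 CPM in spleen. Shares and cell sets use cells thinned to 1000 UMIs, and sets with under 50 cells on either side were not used. No doublet caller was run and cells were not clustered, so doublets can remain. The functions were tested on simulated data.

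All 10 members are named, with up to 4 genes per partner list, those farthest from equal, and the 5 genes at each end of the correlation order. The members, lists and rules were chosen with earlier results of these data known. Lgals6 was not analysed here, S100a2 was added to the S100 genes after the values were seen, and 1 of the cell sets is not reported here. Pclaf was matched by its gene ID. Positions were read from GENCODE M21, whose GRCm38 assembly is mm10. In all, 18 alternatives were set in advance and 5 were added after the data were seen.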

Additional observations from a re-analysis of the deposited data

Results flagged for a closer look

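In 11 cases a gene was higher in a cell set than in the other cells of one library and lower in the other library, with each counting interval off 1. With 1 library on each side these differences in direction were not tested. Every gene of the list was read in each set used in both libraries. The sets of cells with Tcf7, Nkg7, Gzmb, Ifng or Cxcr6 gave no such case. The count of 11 has no share of other genes beside it, so whether it exceeds that of other genes is not known. Cycling cells gave 5 of the 11 cases, given as log2 of cells in the set over other cells, heart then spleen. S100a4 was at -0.27 and 2.62, a heart minus spleen difference of -2.88. S100a6 was at -0.23 and 1.95, a difference of -2.19. S100a11 was at -0.25 and 1.08, a difference of -1.33. Lgals3 was at -0.19 and 3.41, a difference of -3.60. Capg was at -0.07 and 1.83, a difference of -1.90. In cells with Ccl5, Lgals1 was at -0.30 and 1.48 (difference -1.78), Anxa2 at -0.12 and 1.34 (difference -1.45) and Capg at -0.09 and 0.56 (difference -0.65). In cells with Klf2, S100a4 was at -0.67 and 0.35 (difference -1.02) and Lgals1 at -0.19 and 0.22 (difference -0.41). In cells with Ifit1 or Ifit3, S100a10 was at -0.12 and 0.13 (difference -0.25). In all 11 the gene was lower in the set than in other cells in heart, and higher in spleen. This compares cells within a library and not the level of the set between libraries.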

How the results depend on the processing

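No paired analysis was possible because each group had 1 library. Under 18 alternatives set in advance, Capg stayed at least 2-fold higher in heart in each (log2 1.11 to 3.01) and Anxa2 stayed above 0 in each. S100a10 and S100a13 were under 2-fold in each. The count of 7 genes past 2-fold was 6, without S100a11 (0.92), when the totals excluded Malat1 and the mitochondrial and ribosomal protein genes, which moved the median of all genes to -0.20 and the shares of genes higher and lower to 8.26% and 9.34%. The median ratio of the 10 genes, 1.40, became 1.23 under those totals, 1.17 with at most 5% mitochondrial UMIs, 1.66 without cycling cells and 1.59 in cells with Tcf7 alone. The 5% limit kept 3826 heart cells and 4434 spleen cells, and the count stayed at 7. S100a4 was then at 1.25, S100a6 at 1.03 and Anxa1 at 0.82, while S100a11 was little changed at 1.10. With Ccl5 cells alone the median ratio was 0.055 (count 1), with S100a4 at -0.15 and Anxa1 at -0.34. With cycling cells alone it was -0.20 (count 1), with S100a4 at -0.91, S100a6 at -0.69, S100a11 at -0.094, Lgals1 at -0.12, Lgals3 at -0.46 and Anxa1 at -1.20. Among the cell sets added after the data were seen, the joined effector set gave 0.11 (count 1; S100a4 -0.17, S100a6 -0.17, Anxa1 -0.18) and its complement 1.76 (count 7). Gzmb cells gave -0.43 (count 1; S100a4 -1.05, S100a6 -0.77, S100a11 -0.39, Lgals1 -0.43, Anxa1 -1.30). Cxcr6 cells gave -0.47 (count 1; S100a4 -0.89, S100a6 -0.81, S100a11 -0.21, Lgals1 -0.44, Lgals3 -0.70, Anxa1 -1.31). Nkg7 cells gave 0.070 (count 1; S100a4 -0.15, S100a6 -0.16). These settings choose other cells, and the cause was not tested. Depth limits Anxa1, with 553 and 293 UMIs.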

Other observations

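Lgals7, a prototype galectin best known from stratified epithelia, stood at 46.2 CPM among heart cells and 2.29 CPM among spleen cells. A thinned UMI was present in 4.05% of heart cells, and the variance-to-mean ratio of its thinned counts in heart was 1.52, against 0.97 for Lgals9. One heart cell held 87 of its 1961 UMIs. S100a8 and S100a9 each came from 3 heart cells, 1 of which held 64.7% of S100a8 UMIs and 1 of which held 82.2% of S100a9 UMIs.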
